A study of Mus musculus with 14 samples.

Results

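The genes described here are the variable (V) genes of the T cell receptor (TCR) alpha and beta chains, taken as every gene whose GENCODE symbol starts with Trav or Trbv. There were 163 such genes, 128 Trav and 35 Trbv, among the gene IDs of 2 count tables, which held 55487 IDs (inducible Cre) and 53801 IDs (Foxp3-YFP-cre), and all of them were listed in both. The measured quantities were the count of each gene, its level as counts scaled to library size (CPM), and its share of all Trav or all Trbv counts of a library, called usage below.

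The 14 libraries were made from sorted Foxp3+ regulatory T cells (Tregs) of mice carrying floxed Junb, the gene of an AP-1 transcription factor, and the study asked how loss of JunB changes Tregs of the intestine. Peyer's patch (PP) Tregs came from male Foxp3-YFP-cre mice of 8 to 12 weeks, with 2 libraries from Junb flox/+ (HET) and 2 from Junb flox/flox (KO) mice. All HET mice therefore also carried Cre and had 1 floxed allele, the Cre of this line was reported to delete promiscuously in the germline, and the gate was narrower than all Tregs. CD25- PP Tregs (2 iHET and 2 iKO) and colonic lamina propria Tregs (3 iHET and 3 iKO) came from Foxp3-EGFP-cre-ERT2 mice with a Rosa26 tdTomato reporter, 10 to 12 weeks old, in which Cre acts only after tamoxifen. Every one of these mice received 8 mg of tamoxifen by gavage on days 0, 1 and 3, and Tregs were collected on day 7. In the inducible line number 1 of each group was male and the others female. The labels do not say whether colon and PP libraries of 1 number came from the same mouse.

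A TCR alpha chain is made by joining 1 V segment to 1 J segment, and a beta chain by joining V, D and J segments, during T cell development in the thymus. The rearranged gene is then kept for the life of the T cell and its descendants, so V usage in a bulk library reflects which clones were sampled and how large they were, weighted by the RNA of each cell. The mouse Trav locus lies on chromosome 14 and holds a large internal repeat, so that many Trav genes have near-identical copies marked by the letters d and n. The Trbv locus lies on chromosome 6, and its genes differ far more from each other. Treg receptors are known to be shaped by self antigens and, in the colon, by antigens of the microbiota.

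By the study's methods, reads that mapped to several places were dropped, which would leave a Trav copy to be counted through bases that its relatives lack. The inducible table departs from this, with counts for some Trav genes that have no such bases in the annotation, as given further on. Of the 128 Trav genes, 39 carry the letter d and 34 the letter n, and 42 had no 50-base window in their annotated transcripts that was absent from every other gene. The last 240 coding bases of the Trav14-3 set, all on the plus strand of GRCm38 and within the second exon, at chr14:53763455-53763694 (Trav14-3), chr14:53078806-53079045 (Trav14d-3-dv8) and chr14:53370336-53370575 (Trav14n-3), are shown because these 3 copies were counted in most libraries and 1 of them lies in a stretch of genes described further on. Capitals mark the 10 bases at which the copies are not all the same, of 16 such bases in their 361 coding bases.
Trav14-3: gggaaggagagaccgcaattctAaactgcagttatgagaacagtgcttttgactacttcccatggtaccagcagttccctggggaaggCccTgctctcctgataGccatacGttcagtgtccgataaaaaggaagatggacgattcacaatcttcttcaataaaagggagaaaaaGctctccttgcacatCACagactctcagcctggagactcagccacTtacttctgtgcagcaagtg
Trav14d-3-dv8: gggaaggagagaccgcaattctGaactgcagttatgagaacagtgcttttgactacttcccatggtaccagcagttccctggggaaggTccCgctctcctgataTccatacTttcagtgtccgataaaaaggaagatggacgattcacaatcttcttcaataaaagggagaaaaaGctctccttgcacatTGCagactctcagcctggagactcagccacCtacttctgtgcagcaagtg
Trav14n-3: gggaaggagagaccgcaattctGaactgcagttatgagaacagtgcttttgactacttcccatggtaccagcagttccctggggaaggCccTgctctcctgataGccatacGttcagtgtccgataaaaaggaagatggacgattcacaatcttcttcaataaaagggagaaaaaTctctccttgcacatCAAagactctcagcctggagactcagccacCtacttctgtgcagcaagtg
Over the whole coding part, Trav14-3 and Trav14d-3-dv8 differed at 10 bases and Trav14d-3-dv8 and Trav14n-3 at 12. In contrast, the coding parts of Trav11 and Trav11d were identical over the 342 bases they share, and those of Trav12d-1 and Trav12n-1 over 347 bases.

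The 3′ end of a V segment is the part that opens the complementarity-determining region known as CDR3, the loop of the receptor that contacts peptide. The last 60 coding bases are shown for the genes whose share differed between groups, and for Trav1, whose level did. Capitals mark the last in-frame cysteine codon (TGT), after which the bases up to the join follow. Trbv3 and Trbv29 had a lower share in colonic than in CD25- PP Tregs, Trbv15, Trbv31 and Trav9-4 a higher one, and Trbv16 and Trav1 differed between HET and KO PP Tregs.
Trbv3: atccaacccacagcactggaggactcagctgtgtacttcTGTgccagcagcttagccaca
Trbv29: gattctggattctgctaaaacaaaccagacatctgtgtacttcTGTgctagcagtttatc
Trbv15: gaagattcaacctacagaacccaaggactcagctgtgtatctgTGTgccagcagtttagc
Trbv31: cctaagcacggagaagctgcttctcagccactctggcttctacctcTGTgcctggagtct
Trav9-4: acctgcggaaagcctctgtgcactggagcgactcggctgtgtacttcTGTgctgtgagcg
Trbv16: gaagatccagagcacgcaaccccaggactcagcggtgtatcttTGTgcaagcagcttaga
Trav1: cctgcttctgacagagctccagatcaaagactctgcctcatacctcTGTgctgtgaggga
On GRCm38 these ends lie at chr6:41048769-41048828 (Trbv3), chr6:41271822-41271881 (Trbv29), chr6:41141599-41141658 (Trbv15), chr6:41557693-41557752 (Trbv31, the only one on the minus strand), chr14:53676571-53676630 (Trav9-4), chr6:41152171-41152230 (Trbv16) and chr14:52428817-52428876 (Trav1). Each is the end of the coding exon of its V segment. None of these genes shared exon bases with another annotated gene.

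Libraries held between 26274861 and 35508709 counts in all. Trav genes received between 3700 and 5518 counts and Trbv genes between 7608 and 20315, so that 3 counts, taken as the floor of detection, corresponded to between 0.0544% and 0.0811% of Trav and between 0.0148% and 0.0394% of Trbv counts. Reads carried no molecular identifiers, and intervals and floors cover counting error only. Junb, the targeted gene, was at 4861 and 5277 CPM in PP HET and 601 and 553 CPM in PP KO libraries, and in the inducible line it lay between 4561 and 7959 CPM in iHET and between 924 and 1015 CPM in iKO libraries. The log2 fold change of Junb in edgeR's test was -3.11 in PP (adjusted p = 4.74e-05), -2.91 in colonic (adjusted p = 0.0183) and -2.44 in CD25- PP Tregs, where it missed the threshold (adjusted p = 0.0940). Foxp3 was counted in every library, at 59.7 CPM or more.

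Of the 163 genes, 31 had no count in any library (27 Trav and 4 Trbv) and 69 had at least 1 count in all 14 (48 Trav and 21 Trbv). Annotated pseudogenes (20 Trav and 13 Trbv) took between 0.754% and 4.01% of Trav and between 0.264% and 0.741% of Trbv counts. Beta usage was uneven. Trbv3 had the highest mean share over all libraries and in each of the 3 Treg populations, at 18.9% ± 7.71 (SD, n = 14) over all, followed by Trbv13-2 at 12.9% ± 2.87, Trbv19 at 9.96% ± 2.68, Trbv16 at 8.57% ± 2.34, Trbv1 at 6.99% ± 3.03 and Trbv31 at 5.74% ± 1.77. Trbv13-2 and Trbv19 differed by slightly more than either SD, and the other neighbours in this order by less than the larger SD. Trbv3 averaged 26.8% in PP, 19.0% in CD25- PP and 13.5% in colonic Tregs. Single libraries had other leading genes, Trbv19 in all 3 colon iHET libraries (13.5%, 15.4% and 11.5%), Trbv13-2 in PP KO 2 and CD25- PP iHET 1, and Trbv1 in colon iKO 3. Counted per kilobase of exon, Trbv3 and Trbv13-2 remained first and second, with 16.8% and 15.4% of the per-length total, and Trbv16 ranked above Trbv19. The Trbv13 family together made up between 18.0% and 27.9% of Trbv counts per library and the Trbv12 family between 5.91% and 12.7%.

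Alpha usage was spread over more genes. Trav17 and Trav12-2 had the highest mean shares, 4.58% ± 1.45 and 4.57% ± 2.75 (SD, n = 14), and Trav4-4-dv10 (4.01% ± 2.83), Trav14n-3 (3.58% ± 1.35), Trav7-4 (3.52% ± 1.04) and Trav6-4 (3.37% ± 1.72) followed within their SD. These means run over both tables, and the order differed between populations. Trav12-2 averaged 7.36% in PP Tregs of Foxp3-YFP-cre mice, and within the inducible line 4.5% in CD25- PP and 2.76% in colonic Tregs, where Trav17 (4.81%) and Trav6-4 (4.71%) led. Of these, Trav7-4 had only 24.9% of its windows unique to it, whereas Trav17 had all of them, so the share of Trav7-4 is uncertain.

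**Figure D1:**
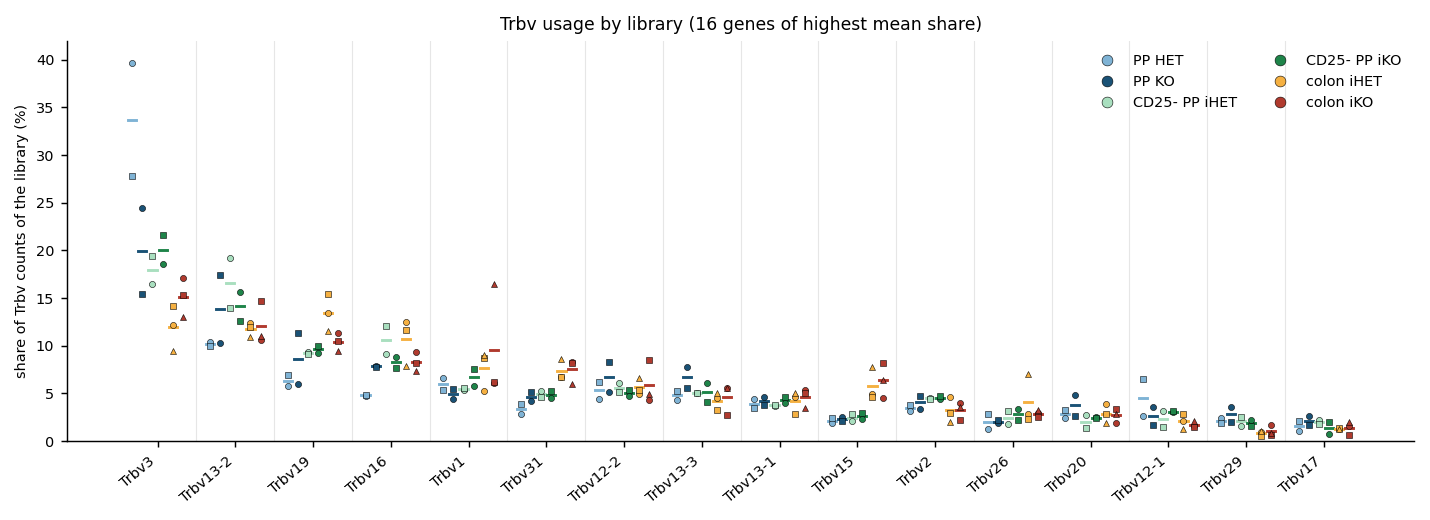
Share of each library's Trbv counts (percent, y axis) for the 16 Trbv genes of highest mean share (x axis), with 1 point per library (circle, square and triangle for numbers 1, 2 and 3) and a line at each group mean. Trbv3 ran from 9.45% to 39.6%, and the 6 colon libraries lay above all others for Trbv15.

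The effective number of genes, the inverse Simpson index, says how many equally used genes would give the same unevenness. For Trbv it was 5.33 and 8.62 in PP HET and 9.73 and 10.5 in PP KO libraries, between 9.999 and 10.6 in CD25- PP and between 10.6 and 12.8 in colonic Tregs. The library with the lowest value, PP HET 1, gave 39.6% of its Trbv counts to Trbv3 (95% Wilson interval 39.0 to 40.3). For Trav the effective number was 31.2 and 36.9 in PP HET, 32.9 and 20.3 in PP KO, between 41.2 and 48.1 in CD25- PP and between 37.9 and 44.2 in colonic Tregs. PP KO 2, which was lowest, held 13.0% of its Trav counts on Trav4-4-dv10 and 11.9% on Trav12-2. Trav values of the 2 mouse lines should not be set side by side, since the 2 tables differed in which Trav genes had counts, as given further on.

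**Figure D2:**
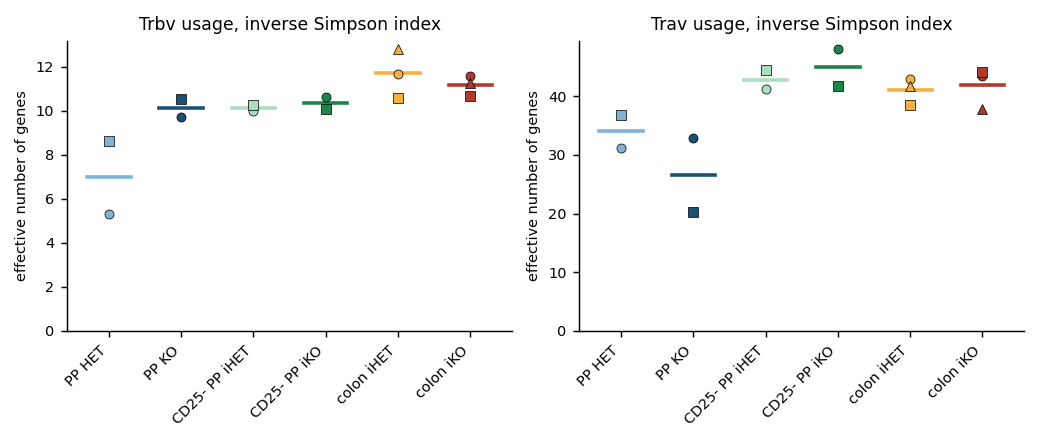
Effective number of Trbv (left) and Trav (right) genes per library (y axis, inverse Simpson index) in the 6 groups, with 1 point per library and a line at the group mean. PP HET 1 was lowest for Trbv at 5.33 and PP KO 2 lowest for Trav at 20.3.

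How far libraries resembled each other was measured by the shared usage of a pair, the sum over genes of the smaller of both shares. For Trbv it was between 89.2% and 92.7% among CD25- PP libraries, between 81.9% and 91.1% among colon libraries and between 72.4% and 88.6% among PP libraries of Foxp3-YFP-cre mice. Pairs of a colon and a CD25- PP library shared between 76.7% and 88.7%, which overlapped the range within the colon. Within the colon, pairs of the same genotype (81.9% to 91.1%) and of different genotype (84.0% to 88.4%) had overlapping ranges. For Trav, pairs within the colon shared between 73.2% and 82.2%, pairs within CD25- PP between 80.1% and 82.4%, and pairs across these organs between 75.1% and 83.4%. Colon and CD25- PP libraries of the same genotype shared between 83.5% and 88.2% of Trbv usage where their numbers matched and between 76.7% and 87.8% where they did not.

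Colonic Tregs held less V gene RNA than CD25- PP Tregs, and most of the difference was in the beta chain. Summed over all Trbv genes, colon libraries lay between 257 and 348 CPM and CD25- PP libraries at 521, 610, 491 and 494 CPM, without overlap. Trav genes summed to between 117 and 146 CPM in the colon and between 166 and 182 CPM in CD25- PP, also without overlap. The ratio of Trbv to Trav counts was between 1.93 and 2.67 in the colon and between 2.72 and 3.45 in CD25- PP Tregs. These sums were not tested, and the sort by CD25 was applied to the PP cells only, so organ and gate cannot be told apart. In bulk RNA, fewer cells using a gene and less of its RNA per cell cannot be told apart either.

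**Figure D3:**
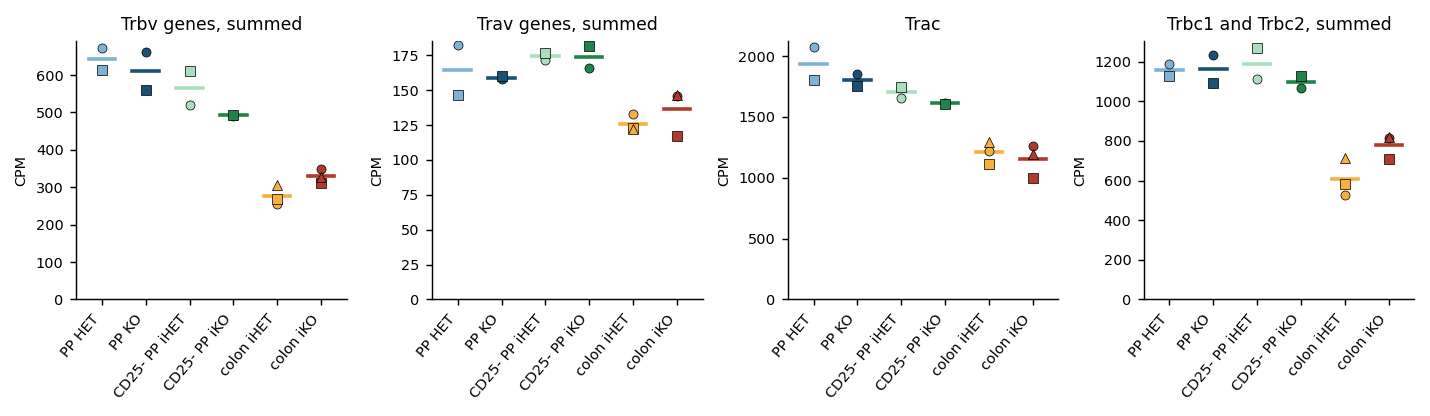
Summed CPM of Trbv and of Trav genes, CPM of the alpha constant gene Trac, and summed CPM of the beta constant genes Trbc1 and Trbc2 (y axes) in the 6 groups, with 1 point per library and a line at the group mean. In all 4 panels the 6 colon libraries lay below the 4 CD25- PP libraries.

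The constant genes moved the same way as the V genes. With genotype as a further term and p adjusted over all genes (edgeR, quasi-likelihood F test), the constant beta gene Trbc2 was lower in colonic Tregs with a log2 fold change of -0.71 (SE 0.11, adjusted p = 0.00196), Trbc1 with -0.43 (SE 0.12, adjusted p = 0.0337) and the constant alpha gene Trac with -0.36 (SE 0.083, adjusted p = 0.0135). Over all genes tested, 7.73% were called lower and 10.2% higher. Of the 8 genes listed for the TCR complex, 4 fell and none rose, the fourth being Cd3e, which encodes a CD3 signalling chain (log2 fold change -0.33, SE 0.075, adjusted p = 0.0124). Cd4, the co-receptor, was not called (log2 fold change 0.18, adjusted p = 0.127). Of 20 genes listed for proximal TCR signalling, 8 fell, among them the kinase Zap70 (-0.45, adjusted p = 0.0172) and Themis (-0.86, adjusted p = 0.000194), and 2 rose, among them the co-receptor Cd28 (0.67, adjusted p = 0.000287).

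Of the V genes, 80 passed the filter of at least 1 CPM in 2 libraries (59 Trav and 21 Trbv), and 10 of them were called, all lower in colonic Tregs, beside 7.73% of all genes called lower, 10.2% called higher and 18% called in either direction. Of the 21 Trbv genes, 9 fell, 20 had a negative log2 fold change and the median was -0.68. Of the 59 Trav genes only Trav5-1 fell, 45 had a negative log2 fold change and the median was -0.31, while the median over all genes tested was -0.0041.

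Trbv3 was at 83.1, 109, 88.0 and 102 CPM in CD25- PP Tregs and had a lowest, median and highest level of 30.6, 41.8 and 59.99 CPM in colonic Tregs. The ranges did not overlap, and its log2 fold change was -1.19 (SE 0.15, adjusted p = 0.000655). Trbv13-2 was at 96.5, 77.9, 74.1 and 59.7 CPM in CD25- PP and between 33.6 and 48.0 CPM in colonic Tregs (log2 fold change -1.04, SE 0.15, adjusted p = 0.00102), again without overlap. Trbv29 had the largest log2 fold change of those called, -1.69 (SE 0.36, adjusted p = 0.00868), with 8.08, 14.2, 10.3 and 7.29 CPM in CD25- PP and between 1.44 and 6.03 CPM in colonic Tregs. Trbv2 (-1.17), Trbv12-1 (-1.18), Trbv14 (-1.17), Trbv13-3 (-0.86), Trbv16 (-0.68) and Trbv19 (-0.35) were the other beta genes that fell, with adjusted p between 0.00456 and 0.0367. Trav5-1 fell by 0.86 on the log2 scale (SE 0.20, adjusted p = 0.0140), from between 4.196 and 5.67 CPM to between 2.05 and 3.08 CPM. Trbv3, Trbv13-2, Trbv2, Trbv12-1, Trbv29 and Trbv16 kept the call in all 10 fits that left out 1 library, whereas Trav5-1 lost it in 1 (without CD25- PP iHET 1, adjusted p = 0.0613), Trbv13-3 and Trbv14 in 4 each and Trbv19 in 7. With libraries of 1 genotype alone, 3 (iHET) or 2 (iKO) V genes were called, beside 430 of 17238 and 1267 of 17362 genes.

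Usage, which sets aside the total of each chain, differed less between the organs. In the fit of shares, 5 of 80 V genes were called (3 higher and 2 lower in colonic Tregs), beside 17.9% of all genes (10.2% higher and 7.67% lower). Genes other than V genes entered that fit by their level. Shares of 1 chain sum to 100%, so they are not independent of each other. Trbv15 made up 2.06%, 2.85%, 2.31% and 2.94% of Trbv counts in CD25- PP Tregs and a lowest, median and highest share of 4.54%, 5.63% and 8.17% in colonic Tregs. The ranges did not overlap, and its log2 ratio of shares was 1.25 (SE 0.21, adjusted p = 0.00308). The level of Trbv15 was the only one of the 21 Trbv genes with a positive log2 fold change, 0.58 (SE 0.24, adjusted p = 0.118), and was not called.

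Trbv31, whose V segment lies in the opposite orientation to the others named here, made up 5.29%, 4.67%, 4.502% and 5.21% in CD25- PP Tregs and 6.03%, 7.48% and 8.62% (lowest, median and highest) in colonic Tregs, with a log2 ratio of 0.59 (SE 0.14, adjusted p = 0.0127). Its level was nearly the same in both (log2 fold change -0.07, SE 0.17), while the Trbv total was lower in the colon. Trbv3 fell from 16.5%, 19.5%, 18.6% and 21.6% to a lowest, median and highest share of 9.45%, 13.6% and 17.1% (log2 ratio -0.50, SE 0.13, adjusted p = 0.0221), where 1 colon library, iKO 1, overlapped the CD25- PP range. Trbv29 fell from between 1.54% and 2.53% to between 0.505% and 1.72% (log2 ratio -1.02, SE 0.31, adjusted p = 0.0431), also with an overlap. Trav9-4 was the only alpha gene called, at 0.852%, 0.726%, 1.29% and 0.755% in CD25- PP Tregs against 1.03%, 1.95% and 3.62% (lowest, median and highest) in colonic Tregs (log2 ratio 1.13, SE 0.34, adjusted p = 0.0397). Its ranges overlapped, and it lost the call when copies named with d or n were summed (adjusted p = 0.0568).

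Trbv15 and Trbv31 were called in each fit that left out 1 library, Trbv3 was lost without CD25- PP iHET 2 (adjusted p = 0.0767) or CD25- PP iKO 2 (adjusted p = 0.0665), and Trbv29 and Trav9-4 were lost in 8 of 10 such fits each, with adjusted p of up to 0.139. Within iHET libraries no share was called (Trbv15 had a log2 ratio of 1.23, adjusted p = 0.0988), and within iKO libraries only that of Trbv15 was.

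**Figure D4:**
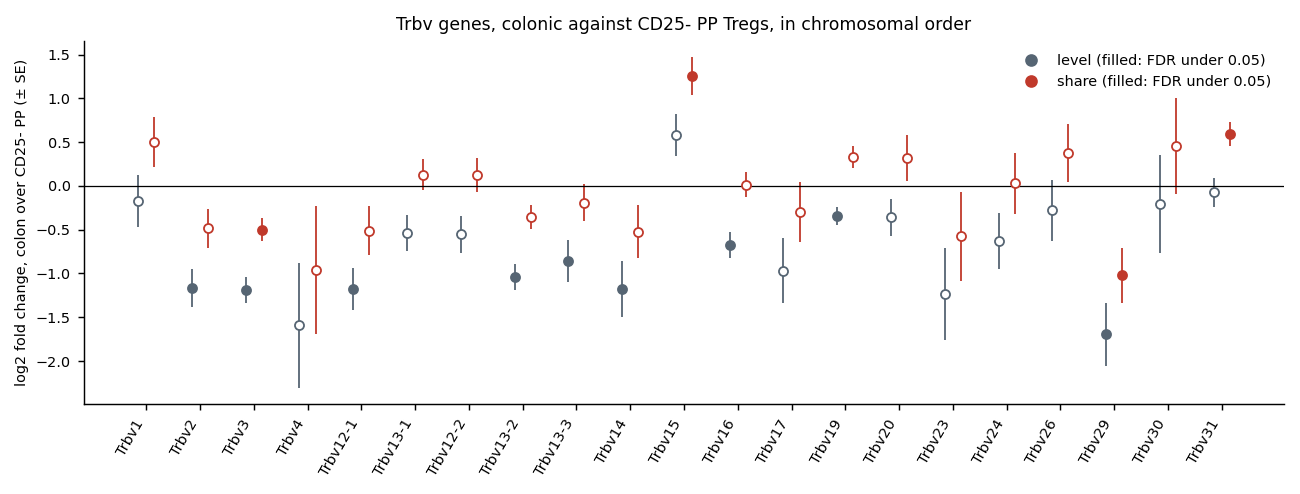
Log2 fold change, colonic over CD25- PP Tregs (y axis, with SE), of the level (grey) and of the share (red) of the 21 Trbv genes tested, in chromosomal order (x axis). Filled points passed an FDR of 0.05, and all levels but that of Trbv15 lay below 0, while shares lay on both sides.

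Beyond the genes called, the 2 alpha and 2 beta genes with the largest differences of mean share were Trav6-4 (3.59% in CD25- PP and 4.71% in colonic Tregs) and Trav9-4 on the higher side, and Trav12-2 (4.50% and 2.76%) and Trav7-1 (2.00% and 0.967%) on the lower side, of which only Trav9-4 passed the test. Among beta genes they were Trbv15 and Trbv1 (6.09% and 8.62%) and, lower, Trbv3 and Trbv13-2 (15.4% and 11.9%). The mean of Trbv1 in the colon rested largely on colon iKO 3, where Trbv1 made up 16.5% of Trbv counts (95% Wilson interval 15.8 to 17.2) against between 5.23% and 9.06% in the other 5 colon libraries.

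Markers of other cells also differed between the organs, where 10.2% of all genes were called higher and 7.73% lower. Of 5 epithelial genes, 3 were higher in colonic Tregs (summed CPM between 107 and 924, against between 78.6 and 168 in CD25- PP), and of 5 myeloid genes, 2 were higher (between 36.2 and 178 against between 12.5 and 57.1). Of 8 B cell genes, 2 were higher and 2 lower, and their sum was lower in the colon (between 380 and 882 against between 1002 and 1285 CPM). Cd8a, a marker of CD8 T cells, was at 2.65 and 13.6 CPM in CD25- PP iHET and 2.13 and 23.2 CPM in CD25- PP iKO libraries and at 1.137 CPM or less in the colon (log2 fold change -3.44, adjusted p = 0.00311), and the CD8 list had 1 of 2 genes lower. Of 11 genes listed for gamma delta T cells, 6 were tested, 1 was higher and 3 were lower. CD8 T cells also carry alpha and beta chains. Both populations were sorted as TCRb+ CD4+ cells with EGFP and tdTomato, a gate meant to leave out CD8 T cells, B cells, myeloid cells and epithelium. The part of such cells in the differences of V usage was not tested.

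Few V genes were called between genotypes, as were few genes in general. In PP Tregs of Foxp3-YFP-cre mice, 65 V genes passed the filter (45 Trav and 20 Trbv), and 2 were called, 1 higher and 1 lower in KO Tregs, beside 3.35% of all genes (0.99% higher and 2.36% lower). Trbv16 was at 31.2 and 29.8 CPM in HET and at 52.3 and 44.5 CPM in KO Tregs, a log2 fold change of 0.66 (SE 0.12, adjusted p = 0.0257). Its share was 4.76% and 4.82% in HET and 7.84% and 7.82% in KO libraries, values that differed within each genotype by less than their 95% counting intervals, and its log2 ratio of shares was 0.71 (SE 0.10, adjusted p = 0.0133). It was the only V gene whose share was called, beside 3.33% of all genes (0.982% higher and 2.35% lower).

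Trav1, the V gene of the invariant alpha chain of mucosal-associated invariant T (MAIT) cells, was at 4.07 and 3.75 CPM in HET and at 1.26 and 1.30 CPM in KO Tregs, from 126, 103, 35 and 35 counts (log2 fold change -1.59, SE 0.35, adjusted p = 0.0483). The genotypes did not overlap, and its share fell short of the threshold (log2 ratio -1.57, SE 0.35, adjusted p = 0.0508). Klrb1c, a receptor of NK and invariant T cells, fell as well (log2 fold change -1.74, SE 0.18, adjusted p = 0.00368). Of 6 genes listed for invariant T cells, Trav1 itself among them, 3 were tested. Klrb1c was the only other gene called, and the third, Cd1d1, was not. Zbtb16, the transcription factor of invariant T cells, had 5, 5, 0 and 0 counts. Of 5 epithelial genes, 3 were lower in KO libraries (summed CPM of 115 and 102 in HET against 52.6 and 48.3 in KO), beside 2.36% of all genes. The part of other cells in these results was not tested.

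Both calls in PP Tregs rested on 2 libraries per group. Trbv16 and Trav1 both lost the call of their level when PP HET 1 (adjusted p = 0.185 and 0.276), PP HET 2 (0.186 and 0.207) or PP KO 1 (0.0818 and 0.120) was left out, and Trav1 also without PP KO 2 (adjusted p = 0.109), all by edgeR. The share of Trbv16 lost its call without PP HET 1 (adjusted p = 0.132) or PP HET 2 (adjusted p = 0.0931). With 1 library of a group left, that library is assumed to vary like the others. Each such fit also called fewer genes among all genes, far fewer without either HET library. A call lost without a HET library is therefore not particular to Trbv16 or Trav1. The fall was small without either KO library, so this cannot be said of the calls lost there. Without the filter on low counts 8 of 103 V genes were called by level in place of 2, beside 1305 of 30707 genes.

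The gene with the largest difference of mean share in PP Tregs was Trbv3, at 39.6% and 27.8% in HET and 24.5% and 15.5% in KO libraries. The genotypes did not overlap, but the spread within each was wide. The log2 ratio of -0.76 (SE 0.22) was not called (edgeR, adjusted p = 0.141), and without PP KO 1 it was -1.13. Trbv3 was called by edgeR with no filter on low counts (adjusted p = 4.69e-13). It was also called with library number as a term, the replicate block (log2 ratio -0.77, adjusted p = 4.86e-06). Those 2 fits called more genes in general, 1309 of 30707 and 1016 of 12224, beside 407 of 12224 in the main fit. Trav12-2 (4.60% and 5.92% in HET, 7.03% and 11.9% in KO) and Trav4-4-dv10 (4.95% and 5.70% in HET, 4.57% and 13.0% in KO) had the largest rises of mean share among alpha genes. Neither was called (adjusted p = 0.183 and 0.524), although both were without PP KO 1 and with no filter, and Trav12-2 also with the replicate block. The log2 ratio of Trav4-4-dv10 turned from 0.72 to -0.22 without PP KO 2. Trbv13-2 (10.4% and 10.01%, against 10.3% and 17.4%), Trbv12-1 (2.62% and 6.49%, against 3.62% and 1.65%) and Trav7-1 (6.23% and 2.60%, against 1.24% and 4.34%) overlapped between genotypes. Of the 8 genes of the TCR complex and the 20 of proximal TCR signalling, none was called in PP Tregs.

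In CD25- PP Tregs none of the 76 V genes tested (55 Trav and 21 Trbv) was called, in level or in share, nor was any of the 17079 genes (0%) by edgeR's quasi-likelihood test, although 618 genes and 3 V genes had an unadjusted p under 0.05. Over all genes, 43 were called by edgeR's exact test and 35 by DESeq2, none of them V genes. Trbv16 made up 9.11% and 12.02% in iHET and 8.78% and 7.71% in iKO libraries (log2 fold change of the level -0.54, SE 0.22, adjusted p = 0.999). Trav1 made up 0.873% and 0.982% in iHET and 1.92% and 1.26% in iKO libraries. Trbv3 ranged from 16.5% to 21.6% in the 4 libraries, with a log2 ratio of 0.16 (SE 0.15). Without the filter on low counts 1 of 122 V genes, Trav6-2, was called, beside 232 of 42641 genes. Trav6-2 was named after its values were seen.

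In colonic Tregs none of the 60 V genes tested (40 Trav and 20 Trbv) was called between iKO and iHET. Of all 16313 genes 1 was called (0.00613%), which was Junb. Library number was a term in this fit, in place of cage. By unadjusted p under 0.05 there were 3 V genes in level and 4 in share. The likelihood ratio test and DESeq2 called no V gene, beside 25 and 42 of 16313 genes. Trav7n-4 had 2.23%, 1.03% and 2.26% of Trav counts in iHET and 0.595%, 0.324% and 0.728% in iKO libraries, without overlap (log2 ratio -1.69, SE 0.38, adjusted p = 0.947). Trbv3 had 12.1%, 14.2% and 9.45% in iHET and 17.1%, 15.4% and 13.0% in iKO libraries (log2 ratio 0.36, SE 0.14, adjusted p = 0.947), and Trav19 had 1.37%, 1.44% and 1.45% against 3.06%, 1.87% and 3.60% (log2 ratio 0.94, SE 0.35). Trbv16 had 12.5%, 11.7% and 7.93% against 9.36%, 8.22% and 7.33%, and the groups overlapped. Whether the genotype difference of a level differed between the organs was tested as an interaction, and none of the 80 V genes was called, with 3 at an unadjusted p under 0.05 and no call among all genes (0%).

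The V genes of invariant T cells took a small part of alpha usage in the inducible line. Trav11, the V gene of the invariant chain of NKT cells, had between 9 and 31 counts in the inducible libraries (0.187% to 0.616% of Trav counts), and was listed at 0 in the 4 libraries of Foxp3-YFP-cre mice. It has no unique window, and no gene without one had a count in that table, so this 0 does not bound its share. Its copy Trav11d had no count in any library. Since both copies have the same coding bases, the count of either is uncertain. Trav1 made up between 0.703% and 3.43% in colonic and between 0.873% and 1.92% in CD25- PP Tregs.

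The 2 tables differed in which Trav genes had counts. None of the 42 Trav genes without a unique window had a count in the libraries of Foxp3-YFP-cre mice, whereas 9 of them had counts in all 10 libraries of the inducible line, among them Trav7-2 (40 to 100 counts), Trav14n-1 (21 to 48) and Trav12d-1 (20 to 60). In all, 11 Trav genes were at 0 in the 4 former and counted in each of the 10 latter libraries, and none showed the opposite. Among them, Trav15d-1-dv6d-1 and Trav3-2 had 12.7% and 60.2% of their windows unique. Trav4-1, with 94.3% of its windows unique, had 0, 0, 0 and 1 counts in the former and between 13 and 64 in the latter libraries. The study's methods give the same aligner settings for all libraries, and how the counts of genes without a unique window arose was not tested. Mouse line, sequencer and table cannot be told apart, and Trav levels were therefore compared only within a table.

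Within the Foxp3-YFP-cre table, a stretch of neighbouring Trav genes was counted in 2 of 4 libraries. From Trav8d-2 to Trav9n-4 (chr14:53042428-53295030 of GRCm38, 253 kb), 29 Trav genes are annotated, and 12 had a count in at least 1 of the 4 libraries. Of these, 11 had at most 1 count in PP HET 1 and PP KO 2 and at least 3 in PP HET 2 and PP KO 1. Trav14d-3-dv8, shown above, had 0, 117, 104 and 0 counts in PP HET 1, PP HET 2, PP KO 1 and PP KO 2, while Trav14n-3 had 128, 107, 149 and 150. Trav8d-2 had 0, 64, 25 and 0 counts, Trav7n-4 had 0, 62, 56 and 0 and Trav6n-6 had 0, 42, 34 and 0. Summed over the stretch there were 0, 402, 303 and 1 counts, or 0%, 9.88%, 6.83% and 0.0229% of Trav counts, and the 0 allows a share of up to 0.0544%. In the inducible line the same genes made up between 5.18% and 9.38% of Trav counts in each of the 10 libraries.

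The pattern followed neither genotype nor library number. The stretch was drawn from the first to the last Trav gene with this pattern, so the 99 Trav genes outside it could not show it. No Trbv gene showed it, and no V gene split the 4 libraries in any of the 5 other ways into pairs by the same limits. These limits were set after the values were seen. The 11 genes had between 10.99% and 78.6% of windows unique to them (median 48.6%). Genotypes were compared over both kinds of library, and leaving the 29 genes out of the Trav total gave no call of a Trav share. Trbv16 kept its call there, which says nothing about the stretch, since its share is of the Trbv total. The cause was not tested.

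**Figure D5:**
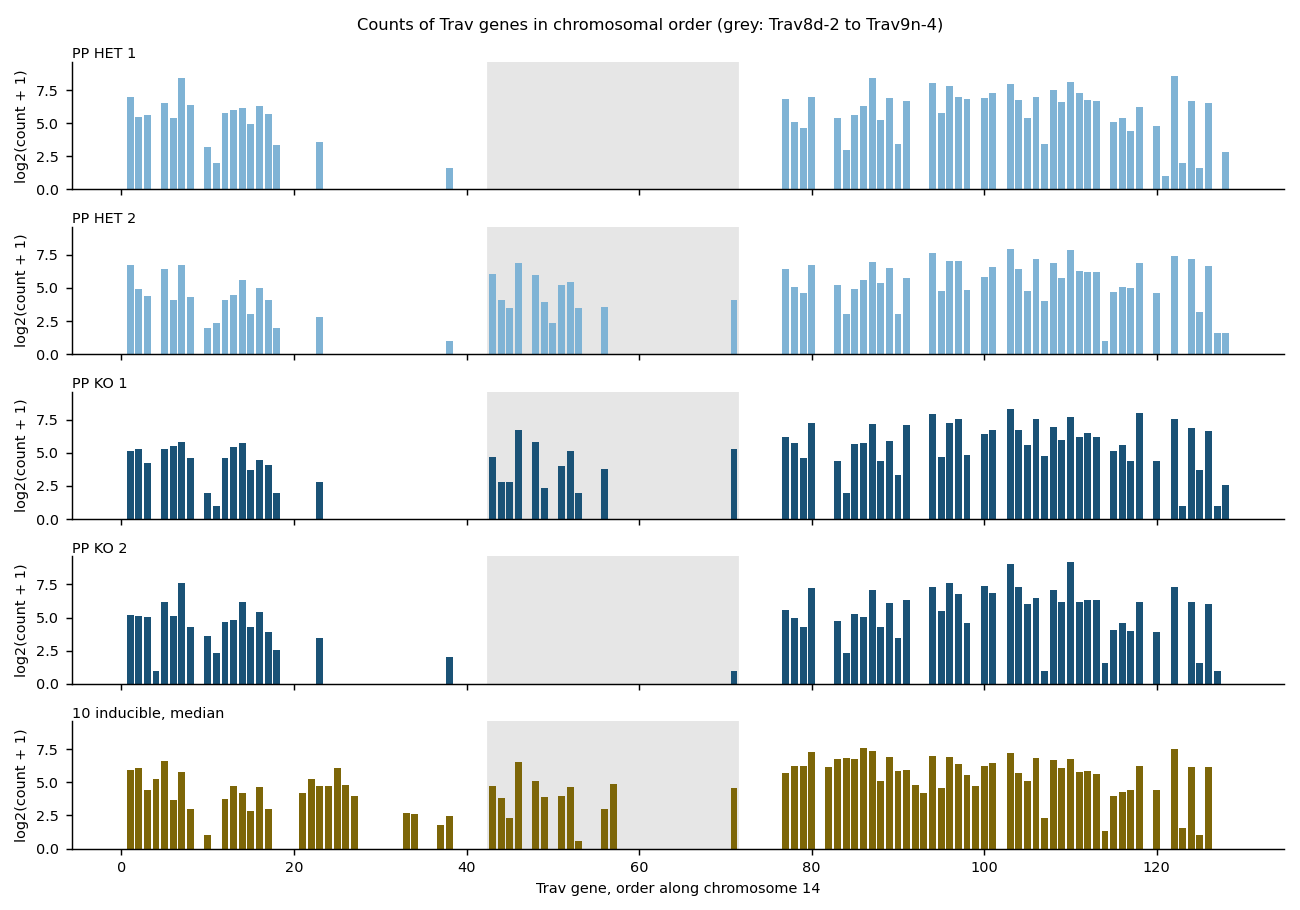
Counts of the 128 Trav genes, as log2(count + 1) (y axis), in their order along chromosome 14 (x axis) for the 4 libraries of Foxp3-YFP-cre mice, and the median over the 10 libraries of the inducible line. In the grey stretch PP HET 1 and PP KO 2 had 0 and 1 counts in all, and the other 2 libraries 402 and 303.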

How the data were processed

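RNA-seq counts per gene were analysed for 14 libraries of mouse Tregs. The authors trimmed reads with Trim Galore, aligned them to mm10 (GRCm38) with STAR without multi-mapped reads or new junctions, and assigned them with featureCounts at default settings, which ignore strand and drop reads that overlap several genes. The deposited values are whole-number counts without normalization. The libraries of Foxp3-YFP-cre mice were 50-base single-end reads, and the reverse reads of the inducible line were left out by the authors. Reads spanning the V-J join may map less well, and by the study's methods multi-mapped reads of near-identical Trav copies were lost. The inducible table nonetheless holds counts for 9 Trav genes without a unique window in all 10 libraries. Shares therefore describe what could be counted.

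Symbols and positions came from GENCODE M21 by gene ID (55394 of 55487 and 53706 of 53801 IDs matched), while the paper names M22. Sequences are the coding parts of M21 transcripts on GRCm38. A 50-base window was called unique if no other gene's transcripts held it on either strand.

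The software was edgeR 4.0.16, DESeq2 1.42.0 and limma 3.58.1 under R 4.3.3, and Python 3.11.15 with matplotlib 3.10.9 for the plots. A gene entered a test when 2 libraries or more (3 for colonic iKO against iHET) reached 1 CPM. After TMM normalization, edgeR's quasi-likelihood F test (prior count of 1) was used, and p was adjusted by the Benjamini-Hochberg method over every gene tested, with an FDR of 0.05. Levels given per gene are TMM-normalized CPM, and sums and the level of Junb are plain CPM. The study's methods give 3 animals per group for the colon. For the PP groups the number of mice per library is not given in the sources used here, and p-values there measure the spread between libraries. For shares, the same fit of all genes was run with the total of all Trav or all Trbv counts as the library size of these genes. Other genes kept their TMM library size there. Colonic iKO against iHET had library number as a term in place of cage, since the samples as used here list no cage. Organs were compared over 10 libraries with genotype as a term. Chain sums, effective numbers and shared usage have no test. The scripts were tested on simulated data.

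The V genes named are the 6 Trav and 6 Trbv genes of highest mean share, those called (at most 10 per comparison, by p), the 2 per chain and comparison with the largest difference of mean share in each direction, the top gene of any library, Trav11, Trav11d and Trav1, with constant genes, list members and families. Others were named after their values were seen. The genes, lists and tests were chosen with earlier results of these data known. Alternatives were other tests, size factors, no filter, merged copies, fits with or without the replicate block, single genotypes and leaving out each library. The 4 genes of a list for recombination in the thymus did not pass the filter in any comparison. The authors' tables hold no comparisons of their own, and 0 columns belonged to no sample.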

Additional observations from a re-analysis of the deposited data

Results flagged for a closer look

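For 5 of the V genes named by rule, the share differed between genotypes without overlap in 2 Treg populations, but in opposite directions. Trav6-1, Trav8-1 and Trav12-3, outside that rule, showed this too and were noticed after their values were seen. The part of all genes that did so is not given here. Groups this small can part without overlap when nothing differs, so the count is not a result about V genes. The difference between populations was not tested on shares, groups held 2 or 3 libraries, and PP Tregs of Foxp3-YFP-cre mice also differed from the others in mouse line, sort and table. Values are the mean share of the Junb-deleted group minus that of its control, in percentage points of the chain total.

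Trbv16 was higher by 3.04 in PP Tregs and differed by -2.32 in CD25- PP Tregs, where it was not called. Trav12-2 was higher by 4.19 in PP and differed by -2.69 in CD25- PP Tregs. Trav14n-3 was higher by 0.918 in PP and differed by -1.76 in CD25- PP Tregs. Trav1 went the other way, with -1.61 in PP and 0.660 in CD25- PP Tregs. Trav7n-4 differed between the organs of the inducible line, with 0.249 in CD25- PP and -1.29 in colonic Tregs. In the inducible line the interaction of organ and genotype was tested on levels, and that of Trav7n-4 was not called.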

How the results depend on the processing

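With no filter on low counts, 8 of 103 V genes were called by level and 9 by share between PP KO and HET Tregs, in place of 2 and 1. Of all 30707 genes, 1305 were called in the fit of levels and 1309 in the fit of shares, which genes other than V genes entered by their level. In CD25- PP Tregs 1 of 122 V genes (Trav6-2) was called by level and by share, beside 232 of 42641 genes. Summing copies named with d or n gave 2 calls by share among 58 V genes in PP Tregs, beside 413 of 12217 genes. Leaving out 1 library changed which V genes were called in PP Tregs, by level and by share. Such fits had 1 library left in a group, so their calls are not counted here. The same step between the organs gave between 2 and 5 calls by share, beside between 2198 and 4044 genes. Between the organs, libraries of iHET mice alone gave 3 calls by level and 0 by share among 73 V genes, beside 430 and 425 of 17238 genes. Those of iKO mice alone gave 2 and 1 among 72 V genes, beside 1267 and 1265 of 17362 genes, with fewer libraries in each.

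With the replicate block (library number as a term), 4 of 65 V genes were called by level and 6 by share in PP Tregs. Of all 12224 genes, 1015 were called in the fit of levels and 1016 in the fit of shares. Between the organs 3 of 80 V genes were called by share, beside 2519 of 18626 genes. Same-numbered libraries had deviations from their group means that correlated at 0.0982 in PP and 0.101 in CD25- PP Tregs, between -0.0885 and 0.293 in the colon and between -0.0562 and 0.13 across organs. The numbers therefore were not taken to pair libraries, and the colon kept the block because the study used cage as a factor. Without it 0 V genes were called there too.

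Log2 ratios of shares turned sign for 5 genes when 1 library was left out, none of them called with all libraries. In PP Tregs, Trav7-1 ran from -1.82 to 0.098 (without HET 1), Trbv12-1 from -1.46 to 0.014 (without HET 2) and Trav4-4-dv10 from -0.22 (without KO 2) to 1.29. Trbv13-2 ran from -0.44 to 0.022 (without iHET 1) in CD25- PP, and Trbv1 from -0.15 (without iHET 3 or iKO 3) to 0.54 in colonic Tregs.

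By Shannon entropy, the mean effective number of Trbv genes was 12.5 in PP, 13.9 in colonic and 13.5 in CD25- PP Tregs. For Trav it was 53.3 in colonic and 55.1 in CD25- PP Tregs, and 40.5 in PP Tregs of the other table, which cannot be compared with these. With copies summed the inverse Simpson index was 29.9 in colonic and 32.0 in CD25- PP Tregs for Trav, and shared Trav usage had a median of 82.8% within the colon and 84.7% within CD25- PP. On TMM library sizes the mean Trav sum in CD25- PP Tregs was 163 CPM. Organ by genotype without each library, the stretch left out, chain sums on TMM sizes and similarity with copies summed were added after the data were seen. With 3700 to 5518 Trav counts per library, single Trav shares rest on few reads, and copies are limited further by multi-mapping.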
